A study of Mus musculus with 2 samples.

Results

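The interferon-inducible GTPase genes measured here were 10 of the 24421 genes in the table of counts. They were taken by name and comprised 6 guanylate-binding protein genes (Gbp2, Gbp3, Gbp4, Gbp5, Gbp6 and Gbp7) and 4 immunity-related GTPase genes (Irgm1, Irgm2, Igtp and Iigp1). All 10 had more than 3 counts in both libraries. RNA-seq was performed on whole-layer back skin of wild-type C57BL6/J mice, which the methods describe as females 8 weeks old with hair in telogen. The control library came from skin without strain at day 5, and the other from skin under 33% strain for 5 days from a device glued to the back. In the methods this is the initial strain, which was raised each day. Each condition had 1 library, and the number of mice behind each was not given in the sources used here. No p-value is therefore given, and a difference between conditions cannot be told apart from a difference between mice or skin pieces.

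Guanylate-binding proteins (GBPs) and immunity-related GTPases (IRGs) are families of GTPases that cells make in response to interferons, above all interferon gamma. They assemble on membranes, including those around intracellular bacteria and parasites, and help to open or mark these compartments for destruction. In mice they are known from macrophages, but most cell types, fibroblasts and epithelial cells among them, make them under interferon. In the IRG family the regulators Irgm1, Irgm2 and Igtp sit on the cell's own membranes, whereas effectors such as Iigp1 go to the membrane around the pathogen. Transcription of the genes is driven through the gamma-activated site (GAS) and the interferon-stimulated response element (ISRE), which is bound by interferon regulatory factors.

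RefSeq promoter windows of 300 bases, with 250 before and 50 after the transcription start on GRCm38.p6, were found for 7 of the 10 genes, with 2 windows for Gbp3 and 1 for each of the others. Gbp4, Gbp6 and Iigp1 had no entry. On both strands, the ISRE was searched as GAAA, any 2 bases and again GAAA, and the GAS as TTCNNNGAA. The windows of 5 genes are printed 5′ to 3′ on the gene's strand, with ISRE and GAS letters in capitals, where an ISRE on the other strand reads as TTTC, 2 bases and TTTC. They show the gene with the most RNA per length in control skin (Gbp2), those with the largest and the smallest fold change among genes with a window (Gbp5 and Gbp7), and the neighbours Igtp and Irgm2. The windows lie at chr3:142620413-142620712, chr3:142496684-142496983, chr3:142530086-142530385, chr11:58199306-58199605 and chr11:58214727-58215026, all on the plus strand.
Gbp2: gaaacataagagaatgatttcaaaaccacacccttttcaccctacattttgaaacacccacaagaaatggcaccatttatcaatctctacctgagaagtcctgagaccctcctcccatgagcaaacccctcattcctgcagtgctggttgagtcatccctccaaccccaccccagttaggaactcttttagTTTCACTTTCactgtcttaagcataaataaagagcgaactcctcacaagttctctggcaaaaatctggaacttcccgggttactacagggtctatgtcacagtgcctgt
Gbp5: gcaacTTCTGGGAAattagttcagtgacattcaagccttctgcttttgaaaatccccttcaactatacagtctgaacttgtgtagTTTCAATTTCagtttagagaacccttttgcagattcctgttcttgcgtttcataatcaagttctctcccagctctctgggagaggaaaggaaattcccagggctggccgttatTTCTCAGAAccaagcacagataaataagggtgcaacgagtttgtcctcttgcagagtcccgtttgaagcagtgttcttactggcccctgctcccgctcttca
Gbp7: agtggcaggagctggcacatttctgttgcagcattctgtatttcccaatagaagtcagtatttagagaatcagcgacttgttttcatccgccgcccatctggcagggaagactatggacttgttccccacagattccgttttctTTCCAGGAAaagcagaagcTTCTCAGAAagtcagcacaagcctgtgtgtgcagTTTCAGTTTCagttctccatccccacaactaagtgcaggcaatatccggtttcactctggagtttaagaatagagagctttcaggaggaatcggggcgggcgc
Igtp: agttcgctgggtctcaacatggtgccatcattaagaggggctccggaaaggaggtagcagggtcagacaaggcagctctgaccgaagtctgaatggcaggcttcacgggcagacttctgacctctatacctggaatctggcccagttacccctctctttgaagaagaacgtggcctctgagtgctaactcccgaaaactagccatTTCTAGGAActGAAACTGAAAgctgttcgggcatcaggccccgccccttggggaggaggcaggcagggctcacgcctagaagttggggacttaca
Irgm2: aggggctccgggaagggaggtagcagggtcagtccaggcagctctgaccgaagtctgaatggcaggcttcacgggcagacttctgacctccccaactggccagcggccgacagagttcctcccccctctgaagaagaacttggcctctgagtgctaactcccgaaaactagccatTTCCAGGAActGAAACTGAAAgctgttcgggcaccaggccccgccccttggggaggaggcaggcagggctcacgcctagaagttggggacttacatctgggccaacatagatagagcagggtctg

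ISRE letters were present in at least 1 window of all 7 genes, against 3.99% of the 27025 genes with a window. The second window of Gbp3, at chr3:142560106-142560405, held neither ISRE nor GAS letters. GAS letters were present in 4 of the 7 (Gbp5, Gbp7, Igtp and Irgm2), against 9.55% of all genes. Most matches lay close to the start. The ISRE letters began 59 bases upstream in Gbp2, 53 in Gbp7, 64 in Irgm2 and 34 in Igtp, and Gbp5 was the exception with a start 165 bases upstream. Gbp3 and Irgm1 each held 2 overlapping ISRE matches, which began 45 and 39 bases upstream in Gbp3 and 30 and 24 bases upstream in Irgm1. In Igtp and Irgm2 the GAS letters stood 2 bases before the ISRE letters. This arrangement, searched over all windows after these matches were seen, was found in 5 of the 27025 genes. These were Igtp, Irgm2, Tgtp1, Tgtp2 and Gm12185. The windows of Igtp and Irgm2 are related over much of their length, with 247 identical bases of 264 aligned, so their matches are not separate observations. A match is a description of letters and not evidence of binding.

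**Figure D1:**
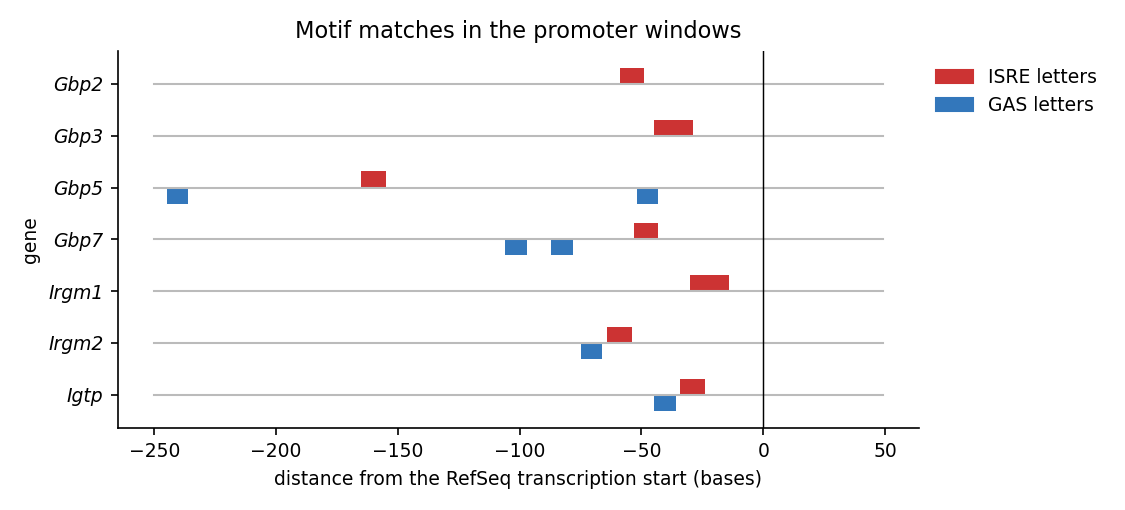
Positions of ISRE letters (red) and GAS letters (blue) in the RefSeq promoter windows of 7 GTPase genes, by distance in bases from the transcription start at 0. Each gene has a window with ISRE letters, within 64 bases of the start in 6 genes and 165 bases upstream in Gbp5, and 4 windows also hold GAS letters.

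All 10 genes were higher in stretched skin. In whole skin, more RNA of a gene per cell and more cells of a type that expresses it cannot be told apart. The counts were divided by the library totals, 14152379 for control and 11648655 for stretched skin, to give CPM, a count per unit of library depth. Each ratio of CPM carries an exact 95% interval (Clopper-Pearson) that covers counting error only. Summed over the 10 genes, 1230 counts in control skin (86.9 CPM) compared with 2266 counts in stretched skin (195 CPM), a 2.24-fold difference (interval 2.09 to 2.40). The interval lay above 0 on the log2 scale for 10 of 10 genes, against 18.1% of the 16255 genes with more than 3 counts in at least 1 library. Among the 5079 genes whose counts over both libraries fell in the range of the 10 genes, from 99 to 637, the share was 17.8%. The median log2 fold change was 1.17, against -0.12 for the 16255 genes, a distance of 1.29. A CPM ratio of at least 2 was reached by 7 of the 10, against 6.32% of the 16255 genes and 6.02% of the 5079.

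**Figure D2:**
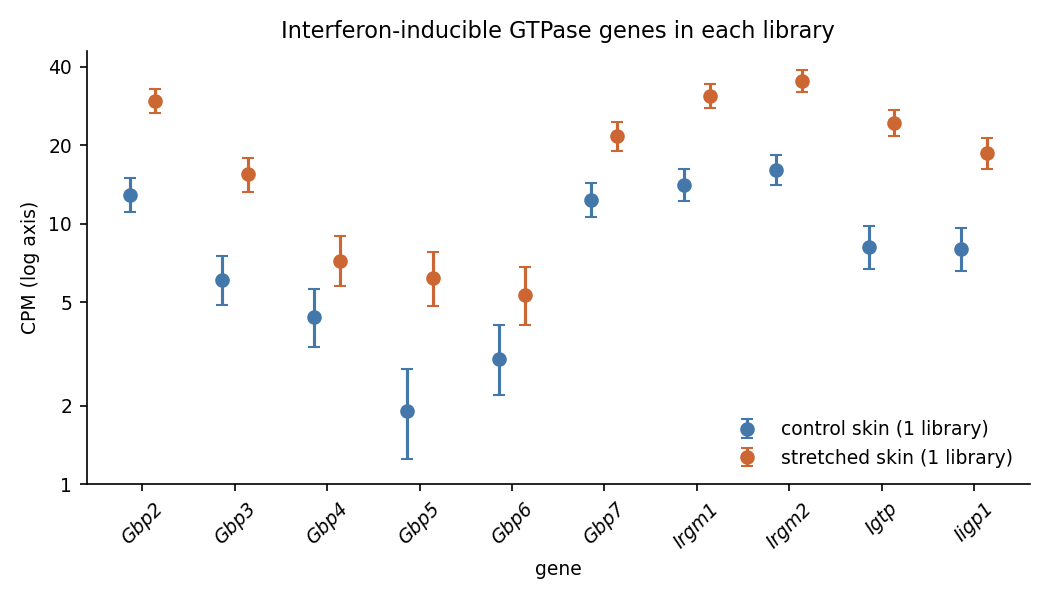
CPM (log axis) of the 10 GTPase genes in control skin (blue) and stretched skin (orange), with exact 95% Poisson intervals that cover counting error. The stretched library lies above the control library for every gene, from 1.65-fold for Gbp4 to 3.24-fold for Gbp5.

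Among the GBP genes, those in the cluster on chromosome 3 are needed together for control of the parasite Toxoplasma in mice. Gbp2, whose protein carries a lipid anchor and gathers on parasite vacuoles and cytosolic bacteria, had 183 counts without and 344 with strain (12.9 and 29.5 CPM). Its log2 fold change was 1.19 (interval 0.93 to 1.46). Gbp3 had 86 and 180 counts (6.08 and 15.5 CPM) (log2 fold change 1.35, interval 0.97 to 1.73). These counts put both genes above 2-fold, with the lower bound of each interval just below it.

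Gbp5, known for promoting assembly of the NLRP3 inflammasome, had the fewest counts in control skin and the largest fold change. It went from 27 counts to 72 (1.91 and 6.18 CPM), a log2 fold change of 1.70 (interval 1.04 to 2.39). Gbp7, which has been linked to oxidative killing in phagosomes, had 175 and 252 counts (12.4 and 21.6 CPM). Its log2 fold change of 0.81 (interval 0.52 to 1.09) was the smallest on chromosome 3. Of its 76-base stretches, the read length, 11.2% are shared with other genes, mostly the processed pseudogene Gm43802, which lies within its exons.

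Gbp4 and Gbp6 lie on chromosome 5. Gbp4 had 62 counts without and 84 with strain (4.38 and 7.21 CPM), a log2 fold change of 0.72 (interval 0.23 to 1.22). Gbp6 had 43 and 62 counts (3.04 and 5.32 CPM) and a log2 fold change of 0.81 (interval 0.22 to 1.40). Gbp6 is uncertain, because 67.2% of its stretches are shared with other genes, chiefly Gm43302 and Gbp10, and how shared reads were counted is not given in the sources used here. With the counts of Gbp6 and Gbp10 added, a step chosen after seeing the data, 50 counts compared with 63, and the log2 fold change was 0.61 (interval 0.06 to 1.18).

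The 4 IRG genes all exceeded 2-fold. Irgm1, a regulator required for resistance to mycobacteria and linked to autophagy, had 199 counts without and 361 with strain (14.1 and 31.0 CPM). Its log2 fold change was 1.14 (interval 0.89 to 1.40). Irgm2, a regulator found at the Golgi, had the most counts of the 10 genes in both libraries, 227 and 410 (16.04 and 35.2 CPM), with 1.13 (interval 0.90 to 1.37) for the log2 fold change. The regulators Irgm1 and Irgm2 therefore differed between libraries by nearly equal factors.

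Igtp, the regulator also called Irgm3 and found at the endoplasmic reticulum and lipid droplets, went from 115 counts to 284 (8.13 and 24.4 CPM). Its log2 fold change of 1.59 (interval 1.27 to 1.91) was the largest of these 4. Iigp1, an effector that loads onto parasite vacuoles, had 113 and 217 counts (7.98 and 18.6 CPM), a log2 fold change of 1.22 (interval 0.89 to 1.56). Irgm1 and Iigp1 share none of their stretches with other genes. Igtp and Irgm2 have 162 exon bases in common, and 7.66% and 4.66% of their stretches are shared with any other gene.

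The fold changes varied among the 10 genes by more than counting error in some pairs. Of the 45 pairs, 8 had an exact 95% interval of the difference that excluded 0, without adjustment for the number of pairs. Igtp was part of 5 of these pairs, in each with the larger fold change. It exceeded its neighbour Irgm2 by 0.45 on the log2 scale (interval 0.05 to 0.86), Irgm1 by 0.45 (0.03 to 0.86) and Gbp7 by 0.78 (0.35 to 1.21). The difference between Gbp5 and Gbp4 was the widest at 0.98 (0.14 to 1.83). Summed counts of the IRG genes had a log2 fold change of 1.24 (1.10 to 1.38) and those of the GBP genes 1.07 (0.92 to 1.22). The difference of 0.17 between the families had an interval that included 0 (-0.03 to 0.38).

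The 10 genes lie in 5 places on GRCm38 (mm10). Gbp5, Gbp7, Gbp3 and Gbp2 stand in this order on chromosome 3 between 142493978 and 142638008, and their summed counts had a log2 fold change of 1.13 (interval 0.97 to 1.29). Gbp4 and Gbp6 belong to the cluster on chromosome 5 between 105014150 and 105346472, with a value of 0.76 (0.38 to 1.13). On chromosome 11, Irgm1 lies between 48861968 and 48871683, and Igtp and Irgm2 lie together between 58199556 and 58222782, with a value of 1.302 (1.11 to 1.49). Iigp1 is on chromosome 18 between 60376027 and 60392634. The intervals of the summed counts on chromosomes 3 and 5 overlap.

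**Figure D3:**
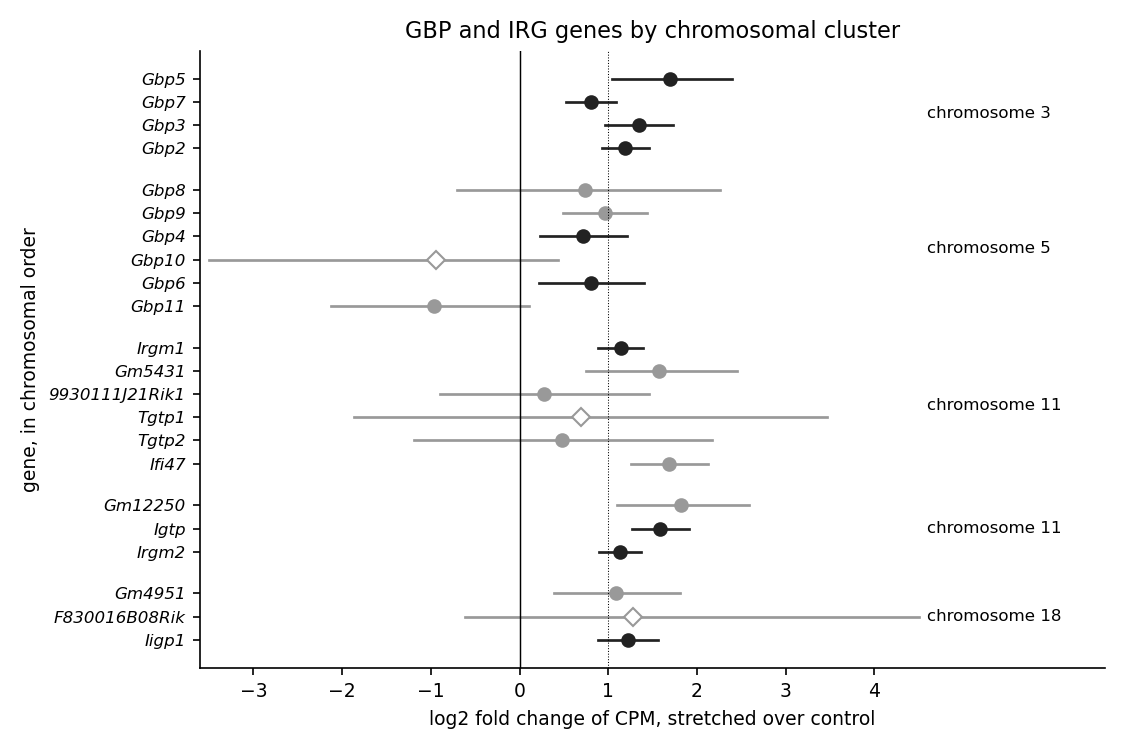
Log2 fold change of CPM (stretched over control) with exact 95% counting intervals for the 10 GTPase genes (black) and their measured relatives in the same clusters (grey), in chromosomal order. Open diamonds mark genes with 3 or fewer counts in 1 library, set to 3, intervals are cut at the frame, and the dotted line marks 2-fold; all black intervals lie above 0, while Gbp10 and Gbp11 lie to the left of 0.

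Levels of different genes were compared per length, as FPKM, the CPM per kilobase, from the counts, the totals and the length of all GENCODE M21 exons of a gene. In control skin the order ran from Gbp2 (5.14 FPKM), Irgm2 (4.35) and Igtp (4.02) through Irgm1 (2.42), Gbp7 (2.20), Gbp3 (1.86) and Iigp1 (1.37) to Gbp4 (0.58), Gbp6 (0.51) and Gbp5 (0.29). In stretched skin Igtp came first (12.1 FPKM), followed by Gbp2 (11.7), Irgm2 (9.54), Irgm1 (5.33), Gbp3 (4.73), Gbp7 (3.85), Iigp1 (3.20), Gbp4 (0.96), Gbp5 (0.93) and Gbp6 (0.89). Neighbours that did not differ beyond counting error in control skin were Gbp2 and Irgm2, Irgm2 and Igtp, Irgm1 and Gbp7, Gbp7 and Gbp3, and Gbp4 and Gbp6. In stretched skin these were Igtp and Gbp2, Irgm1 and Gbp3, Gbp4 and Gbp5, and Gbp5 and Gbp6. The levels depend on the gene model, and with the longest transcript in place of all exons Iigp1 moved from place 7 to place 5 in both libraries.

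**Figure D4:**
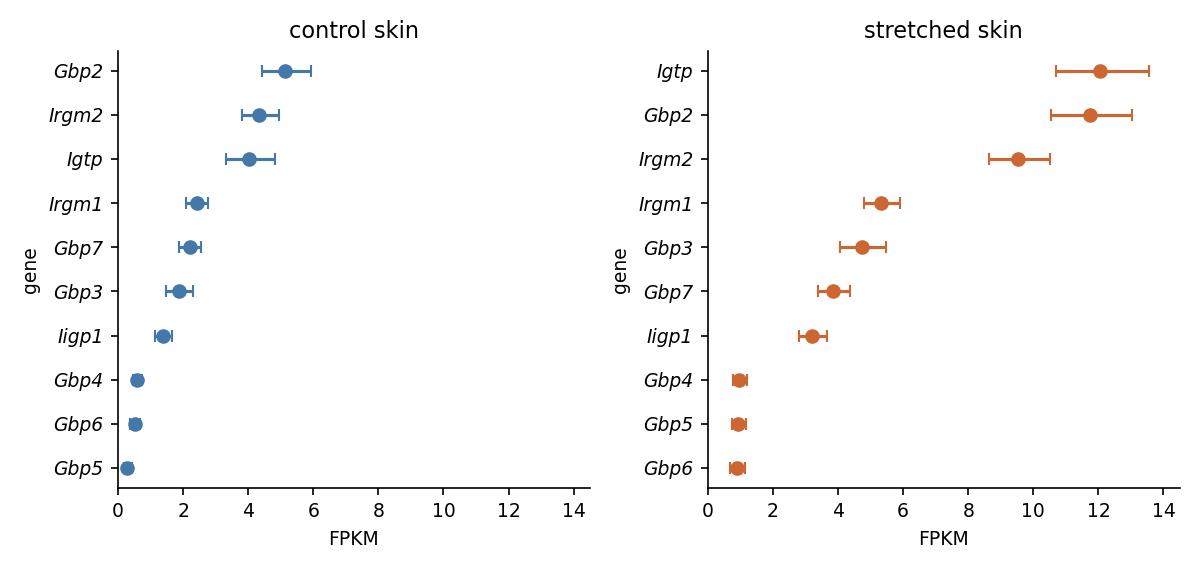
FPKM of the 10 GTPase genes in control skin (left) and stretched skin (right), ordered by level, with exact 95% Poisson intervals. Igtp moves from the third place in control skin (4.02 FPKM) to the first in stretched skin (12.1 FPKM), and Gbp4, Gbp5 and Gbp6 lie below 1 FPKM in both.

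The filter of the methods, a product of both FPKM values (EV) above 10, retained 6 of the 10 genes when 1 was added to each FPKM. With a fold change of at least 2 on the same scale, 3 of them were upregulated (Gbp2, Gbp3 and Igtp), against 2.61% of the 10910 genes that passed the filter. Irgm2 missed the threshold narrowly with a fold of 1.97, and Gbp3 passed it narrowly with 2.004. Under each of the 4 other scalings Irgm2 was upregulated as well, which made 4 genes, against 3.02% of the genes that passed by TMM or upper quartile, 3.08% by median of ratios and 2.81% when the top 50 genes were omitted from the totals. Without an added value 4 genes were upregulated (Gbp2, Igtp, Irgm1 and Irgm2), against 2.94% of the 9683 genes that passed. Gbp5 had the largest CPM ratio of the 10, but it was removed by the filter at either setting. With CPM in place of FPKM, 7 genes were upregulated, against 3.36% of the genes that passed. Among genes with EV above 10, the interval lay wholly above 2-fold for Igtp alone of the 10, against 2.18%, and that of Gbp5, which the filter removed, also did. No gene of the 10 reached EV above 100 (highest 78.2 for Gbp2), so none could be called at that setting, where 2.56% of the genes that passed were upregulated. None of the 6 genes that passed the filter was downregulated, which is near the share of 2.44% among all genes that passed.

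The other genes of the GBP family were measured on few counts. Gbp9 was the exception with 63 counts without and 101 with strain (log2 fold change 0.96, interval 0.49 to 1.44). The intervals of Gbp8 (8 and 11 counts) and Gbp11 (26 and 11 counts) included 0, as did that of Gbp10 (7 and 1 counts), which shares 77.6% of its stretches with other genes. Gbp2b was at the floor with 1 and 3 counts. Of the 4 other GBP genes measured, 1 interval lay above 0 and none below, a share near the 18.1% of all genes, and for the scarce genes no difference was detectable at this depth.

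Of the 11 other IRG genes 9 were measured, and 4 intervals lay above 0 and 1 below, against 18.1% and 33.5% of all genes. Ifi47, an effector IRG on chromosome 11, had 62 and 164 counts (log2 fold change 1.68, interval 1.25 to 2.13), and Gm12250, next to Igtp, had 22 and 64 (1.82, interval 1.10 to 2.59). The other two were Gm5431 (18 and 44 counts) and Gm4951 (28 and 49). Tgtp1 and Tgtp2 are near-identical copies (77.1% and 81.2% of stretches shared), and with 10 and 12 counts in sum no difference was detectable at this depth. Irgq, a relative on chromosome 7 that is not among the classical interferon-inducible IRG genes, had 865 and 583 counts and was lower in stretched skin (-0.29, interval -0.44 to -0.14).

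Of other large GTPases under interferon control, the antiviral Mx1 had 31 and 130 counts (2.35, interval 1.77 to 2.96) and Mx2 had 24 and 43 (1.12, interval 0.37 to 1.91). Members of the dynamin superfamily that are not known as interferon-inducible served as a contrast. These 10 genes include the atlastins, which shape the endoplasmic reticulum and are the closest relatives of the GBPs. Their median log2 fold change was -0.34, and 6 intervals lay below 0 and 1 above, against 33.5% and 18.1% of the 16255 genes. Atl3 had 2675 and 1655 counts (-0.41), and Dnm1 was the 1 gene above with 750 and 877 (0.51). The log2 fold change of the summed GTPase genes exceeded that of this contrast by 1.43 (interval 1.33 to 1.54).

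**Figure D5:**
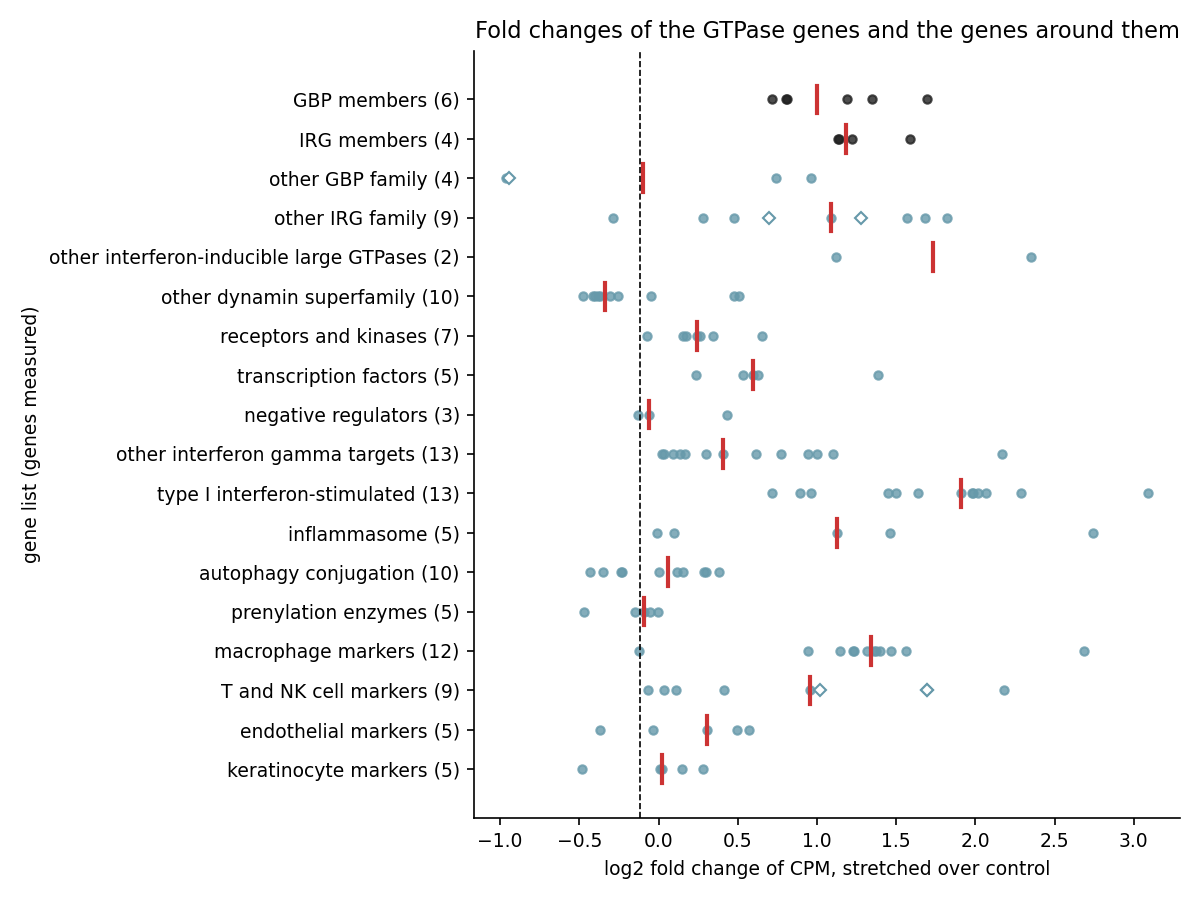
Log2 fold change of CPM (stretched over control) of each measured gene in the lists around the GTPase genes, with the list median (red bar) and the median of all 16255 genes at -0.12 (dashed line). Open diamonds mark genes with 3 or fewer counts in 1 library, set to 3. The medians are 1.18 for the IRG genes studied, 0.41 for other interferon gamma targets, 1.91 for type I interferon-stimulated genes and 1.34 for macrophage markers.

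The genes that carry the interferon signal were examined from ligand to transcription factor. Ifng, which encodes interferon gamma, had 0 counts without and 1 with strain. The count of 0 allows up to 3 counts, or 0.21 CPM, and a difference was not detectable at this depth. Ifnb1 was at 0 in both libraries, and Il18, an inducer of interferon gamma, had 266 and 192 counts (log2 fold change -0.19, interval -0.46 to 0.08). Of the 7 receptor and kinase genes 6 had an interval above 0, against 18.1% of all genes, with small differences on high counts for most. The receptor chain Ifngr1 had 1498 and 1478 counts (0.26), Ifnar2 had 326 and 422 (0.65), and the largest of the 7 values was that of Ifnar2.

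Each of the transcription factor genes Irf1, Irf8, Irf9 and Stat2 had an interval above 0, against 18.1% of all genes. Irf1, which interferon gamma induces and which binds the ISRE, had 309 and 368 counts (0.53, interval 0.31 to 0.76). Stat2 (0.60) and Irf9 (0.63), which act together downstream of type I interferon, were similar to Irf1. Irf8, which is also a factor of the macrophage lineage, had 99 and 213 counts (1.39, interval 1.04 to 1.75) and was above 2-fold. Of the negative regulators, Socs3 was higher (0.43, interval 0.29 to 0.57), and the intervals of Socs1 (93 and 70 counts) and Ptpn2 (440 and 347) included 0.

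Other targets of interferon gamma were more varied. Of 13 measured genes, 6 had an interval above 0 and none below, against 18.1% and 33.5% of all genes, and their median was 0.41. The chemokine gene Cxcl10 had 17 and 63 counts (2.17), and the immunoproteasome subunits Psmb8 (0.95), Psmb9 (110 and 181 counts) and Psmb10 (0.61) were higher. By contrast, the intervals of Ciita (140 and 123 counts), the master regulator of MHC class II genes, and of Nlrc5 (729 and 610), that of MHC class I genes, included 0, and so did those of Tap1 and Wars. The 13 genes of the type I interferon response all had intervals above 0, against 18.1% of all genes, with a median of 1.91. In summed counts the GTPase genes exceeded the other interferon gamma targets by 0.88 on the log2 scale (interval 0.75 to 0.997) and were below the type I genes by 0.50 (0.36 to 0.65 below).

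The window letters were also counted over all genes. Among the 12225 measured genes with a promoter window, 17.9% had an interval above 0. The share was 27.8% for the 454 genes with ISRE letters after the GTPase genes were left out, and their median log2 fold change was -0.01, against -0.12 for the 12225 genes. For the 1043 genes with GAS letters the share was 18.7%. These letters are thus also found in many genes that did not differ. Among genes with a window, ISRE letters were present in 4 of 11 type I genes, 1 of 8 other interferon gamma targets, 4 of 8 other IRG genes and 0 of 10 dynamin superfamily genes.

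Genes whose products act with the GTPases were examined as well. The autophagy conjugation system, which is needed for correct placement of GBP and IRG proteins on vacuoles, had 10 genes. Of these 4 had an interval above 0 and 4 below, against 18.1% and 33.5% of all genes, as for Gabarap (2815 and 2854 counts, 0.30) and Atg5 (599 and 366, -0.43). The 5 prenylation genes, whose products attach the lipid anchor of some GBPs or process the protein afterwards, had a median of -0.09. Of their intervals 1 lay below 0, that of Pggt1b (-0.47), against 33.5% of all genes. Among the 5 inflammasome genes, 3 had an interval above 0, against 18.1% of all genes. Casp4, the sensor of cytosolic lipopolysaccharide, had 71 and 161 counts (1.46), Gsdmd, the pore-forming protein, had 199 and 357 (1.12), and Nlrp3 had 8 and 44 (2.74, interval 1.64 to 4.04). The intervals of Casp1 and Aim2 included 0.

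Macrophage markers moved in the same direction and to a like extent. Of 12 markers 11 had an interval above 0, against 18.1% of all genes, with a median log2 fold change of 1.34, and Mertk was the exception (-0.12, interval -0.37 to 0.12). Their summed level was 909 CPM in control skin and 2182 CPM in stretched skin, which is 1.26 higher on the log2 scale (interval 1.23 to 1.29). The summed GTPase genes were below this by 0.10, with an interval that included 0 (-0.21 to 0.00). The part of macrophages in the GTPase counts was not tested. T and NK cell markers were scarce, with a summed level of 9.75 and 17.0 CPM. Of 12 listed genes 9 were measured, and 3 of these had an interval above 0, against 18.1% of the 16255 genes. They were Cd4 (15 and 56 counts), Gzma (1 and 8) and Ncr1 (0 and 5), whereas Cd3e had 27 and 24 counts and Cd8a 2 and 3. Endothelial markers (median 0.31) went both ways, with 2 of 5 intervals above 0 (Cdh5 0.57 and Pecam1 0.50) and 1 below (Kdr -0.37), against 18.1% and 33.5% of all genes. Keratinocyte markers (median 0.02) did so too, with 3 of 5 above 0 and 1 below (Trp63 -0.49), against 18.1% and 33.5% of all genes. The values above 0 ran from 0.02 for Krt10 (interval 0.004 to 0.04) to 0.28 for Krt14. The epidermal keratin Krt5 had 4325 and 4344 CPM. All 5 fibroblast markers had an interval above 0, against 18.1% of all genes, a share that is not matched for depth. Deep counts gave narrow intervals, so even 0.06 for Dcn (interval 0.03 to 0.08) counted as above 0. Their median was 0.25 and their summed log2 fold change 0.89, and the collagen genes Col1a1 (1.003) and Col1a2 (0.87) were the highest. The 5 skeletal muscle markers went far in both directions, from -4.57 for Myh4 (91029 and 3156 counts) to 1.09 for Mb (2417 and 4249), with 4 intervals below 0 and 1 above, against 33.5% and 18.1% of all genes. The part of these other cell types was not tested either.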

How the data were processed

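RNA-seq libraries of control and stretched skin, 1 per condition, were made with a kit that does not mark strand. Per the methods, single-end reads of 76 bases were quality filtered before TopHat2 alignment to mm10. The authors deposited raw counts of reads per gene symbol, not normalized, and the counter and its treatment of shared reads are not given in the sources used here. The 10 genes, the lists around them and the settings were chosen with earlier results of these data known.

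From the counts, CPM used the library totals, and 3 counts correspond to 0.212 and 0.258 CPM. For ratios, counts of 3 or fewer were set to 3. Exact intervals (scipy 1.17.1) cover counting error only, since PCR reads are not independent molecules. With 1 library per condition no test across replicates could be made. FPKM used GENCODE M21 exons, and 387 genes had no length. Upregulated genes were at least 2-fold higher with EV above 10. Alternatives covered the scaling (DESeq2 1.42.0 median of ratios, edgeR 4.0.16 TMM and upper quartile, and totals that omit the top 50 genes), other added values, EV thresholds and gene lengths, and lists without shared genes. The ratios and intervals were checked on simulated data. All 10 genes and the listed genes are the genes named, and Cufflinks values were not used here. Protein motifs were not analysed here, and 1 gene of the signalling lists is not reported here.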

Additional observations from a re-analysis of the deposited data

How the results depend on the processing

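Scaling adds the same shift to every log2 fold change, 0.11 for median of ratios, 0.10 for TMM and for upper quartile, and 0.06 when the top 50 genes were omitted from the totals. The summed fold change of the 10 genes, 2.24 with total counts, became 2.42 by median of ratios and 2.40 by TMM or upper quartile, just beyond its counting interval. Over 9 alternatives the median of the log2 fold changes lay between 1.0 (GBP genes alone) and 1.28 (median of ratios). The 51 values of single genes under alternatives kept their sign and stayed within their counting intervals, from 0.61 to 1.81. For the 4 other scalings this was fixed in advance, because a shift of at most 0.11 is smaller than the distance from any of the 10 values to its bounds. The number of upregulated genes, 3 in the report, was 1 where the interval also had to lie wholly above 2-fold (2.18% of all genes passing) and 7 with CPM in place of FPKM (3.36%). It was 4 under each of the 4 other scalings, which added Irgm2. It was 0 with EV above 100, where none of the 10 genes entered the comparison. The settings named different genes, since Gbp3 was upregulated only with 1 added or with CPM, and Irgm1 without an added value, with 0.1 added or with CPM. Of 28 list medians under scaling, 3 moved beyond the median bounds of their genes' intervals, all of macrophage markers (1.44 to 1.45), and that of the 4 measured other GBP genes lay near 0 with either sign (-0.10 to 0.01). No paired analysis was possible because each condition has a single library, so none could be omitted. Depth limits Gbp4, Gbp5, Gbp6 and the scarce relatives most.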
